A study of Mus musculus with 19 samples.

Results

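The 10 circadian clock genes Arntl, Clock, Npas2, Per1, Per2, Per3, Nr1d1, Ciart, Dbp and Tef were examined in striatal RNA of 19 mice. They were chosen by name, and all 10 were among the 54232 genes counted and the 18521 genes with enough reads to be tested. The study compared heterozygous knock-in mice that carry an expanded CAG repeat in one Huntingtin (Htt) allele with wild-type mice. All mice were C57/BL/6 and 6 months old, and the tissue was dissected striatum. WT (7 mice) carried no expansion. KI-FL (4 mice) carried the HD140Q allele and made full-length mutant huntingtin. KI-571 (4 mice) and KI-96 (4 mice) carried the same allele truncated by CRISPR-Cas9, in exon 13 and exon 2 respectively, so that a longer and a shorter N-terminal fragment was made. The truncated lines were bred from edited founders, and the labels do not give the founder of each mouse. The hour at which each mouse was killed, its sex and the batch in which it was killed are not given in the labels.

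The circadian clock is a transcriptional feedback loop. ARNTL (also called BMAL1) pairs with CLOCK, or with its forebrain relative NPAS2, and binds E-box sequences to activate the Period, Cryptochrome, Nr1d1, Ciart, Dbp and Tef genes. PER proteins, together with CRY proteins, repress that activation, NR1D1 represses Arntl and Npas2, and CIART represses CLOCK-ARNTL. DBP and TEF are PAR bZIP factors that carry the rhythm to D-box sequences of further genes. In most tissues transcripts of Arntl and Npas2 therefore peak at about the opposite time of day to those of Nr1d1, Dbp and the Period genes, while Clock varies little. In the striatum several of these genes also respond to dopamine, activity and glucocorticoid hormone.

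Reads on genes ranged from 12669809 to 26388542 per mouse, and no clock gene had fewer than 198 reads in any mouse, so counting error was small beside the differences between mice. Markers of striatal projection neurons, the main cell of this tissue, were present in every mouse, with a summed level of 7342 to 11470 CPM (counts scaled to library size). Htt averaged 178 ± 9.80 CPM in WT (SD, n = 7), 186 ± 40.1 in KI-96, 124 ± 15.3 in KI-571 and 158 ± 17.5 in KI-FL (SD, n = 4 each). The Htt count covers both alleles and the whole gene, so it does not check the expansion or the truncations. 3 libraries held RNA of choroid plexus, the secretory epithelium of the ventricles: the summed level of 6 of its markers was 5179 CPM in KI-571 replicate 2, 5567 in KI-571 replicate 4 and 2947 in KI-FL replicate 1, against 34.3 to 404.5 in the other 16 mice. Markers of cerebral cortex, which lies over the striatum, were high in 2 libraries: the summed level of 8 of them was 1234 CPM in WT replicate 3 and 589 in KI-571 replicate 2, against 151 to 271 in the other 17 mice. Xist, the RNA of the inactive X chromosome, was high in 6 mice, namely every KI-96 mouse together with WT replicate 1 and KI-FL replicate 2, where it spanned 886 to 1615 CPM, while the other 13 had no more than 5.05 CPM. In KI-96 replicate 3, 24.2% of reads fell on no gene, and in KI-FL replicate 4 16384 genes were detected against 23177 to 28700 in the others. Genotype and Xist level cannot be told apart for KI-96.

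By the GENCODE M21 annotation of GRCm38, the activator genes lie at chromosome 7, 113207465 to 113314126 (Arntl, plus strand), chromosome 5, 76209868 to 76304792 (Clock, minus strand), and chromosome 1, 39193731 to 39363236 (Npas2, plus strand). The Period genes lie at chromosome 11, 69095217 to 69109960 (Per1, plus strand), chromosome 1, 91415982 to 91459324 (Per2, minus strand), and chromosome 4, 151003652 to 151044665 (Per3, minus strand). The repressors Nr1d1 and Ciart lie at chromosome 11, 98767932 to 98775333 and chromosome 3, 95878503 to 95882251, both on the minus strand. The output genes Dbp and Tef lie at chromosome 7, 45705088 to 45710203 and chromosome 15, 81802421 to 81826863, both on the plus strand. All 10 are protein coding, and reads were counted over their exons. Whether the counting used strand is not given in the sources used here, so reads of a gene and of an overlapping antisense transcript cannot be told apart.

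Start-site windows from RefSeq (build GRCm38.p6, 250 bases before to 50 after an annotated start) matched 9 of the 10 genes, in 14 windows, all but Per2. They were searched on both strands for the E-box CACGTG bound by CLOCK-ARNTL, the D-box TTATGNAA (other strand TTNCATAA) bound by DBP and TEF, and TAGGTCA (other strand TGACCTA), the core of the element bound by ROR and NR1D1. Of all 32851 windows, 7.15% held the E-box, 3.38% the D-box and 2.61% the ROR element core. Among the clock genes the E-box was found in windows of Ciart, Per1 and Tef, the D-box in windows of Per1 and Per3, and the ROR element core in a window of Arntl. The window of Ciart held 3 E-boxes, and 0.0883% of all windows held 3 or more. That of Per3 held 2 D-boxes, and 0.161% of all windows held 2 or more. A match to these letters is a description of the sequence and was not tested as a site. The 5 windows below are those of Ciart and Dbp, whose levels moved together across mice, of Per3 and Per1, which are described in the comparisons and with the immediate early genes, and of Arntl, the common partner of the activators. For a gene with several windows, the one with the most matches is shown. Per1 and Arntl each had another window, with 0 matches of the 3 motifs. The printed windows read 5′ to 3′ on the strand of the gene, with the 3 motifs in capitals, and no matches overlapped. They cover chr3:95882179-95882478 (Ciart, minus strand), chr7:45704997-45705296 (Dbp, plus strand), chr4:151044616-151044915 (Per3, minus strand), chr11:69098699-69098998 (Per1, plus strand) and chr7:113207261-113207560 (Arntl, plus strand).
Ciart: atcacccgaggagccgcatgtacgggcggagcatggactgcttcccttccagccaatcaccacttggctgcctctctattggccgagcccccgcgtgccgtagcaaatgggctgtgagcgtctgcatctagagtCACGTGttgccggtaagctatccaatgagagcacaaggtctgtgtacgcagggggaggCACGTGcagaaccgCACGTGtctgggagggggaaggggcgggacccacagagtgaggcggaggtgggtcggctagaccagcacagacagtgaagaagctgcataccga
Dbp: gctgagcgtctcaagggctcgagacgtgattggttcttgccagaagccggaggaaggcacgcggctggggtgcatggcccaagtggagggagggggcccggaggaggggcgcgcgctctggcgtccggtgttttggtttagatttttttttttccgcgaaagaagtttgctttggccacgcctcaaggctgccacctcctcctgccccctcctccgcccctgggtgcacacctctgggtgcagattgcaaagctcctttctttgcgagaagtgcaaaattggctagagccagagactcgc
Per3: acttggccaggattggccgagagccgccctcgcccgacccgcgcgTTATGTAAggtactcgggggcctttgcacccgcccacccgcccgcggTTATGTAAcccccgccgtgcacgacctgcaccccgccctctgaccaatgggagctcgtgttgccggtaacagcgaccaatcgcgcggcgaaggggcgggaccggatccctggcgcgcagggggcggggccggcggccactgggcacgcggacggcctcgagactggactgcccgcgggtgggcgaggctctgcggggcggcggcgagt
Per1: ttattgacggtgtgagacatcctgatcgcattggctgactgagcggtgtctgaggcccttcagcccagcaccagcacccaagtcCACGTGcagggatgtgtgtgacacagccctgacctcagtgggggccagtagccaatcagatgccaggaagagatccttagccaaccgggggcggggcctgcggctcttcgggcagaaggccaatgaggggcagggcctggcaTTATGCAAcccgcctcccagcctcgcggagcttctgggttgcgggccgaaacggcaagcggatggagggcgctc
Arntl: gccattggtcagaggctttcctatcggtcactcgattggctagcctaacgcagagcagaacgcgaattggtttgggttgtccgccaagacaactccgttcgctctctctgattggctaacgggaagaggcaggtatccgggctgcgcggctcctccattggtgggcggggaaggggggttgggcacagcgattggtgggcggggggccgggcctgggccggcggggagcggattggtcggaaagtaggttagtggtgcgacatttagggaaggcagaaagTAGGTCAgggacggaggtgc

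Divided by the length of their exons, the 10 genes spanned levels from 4.10 ± 0.854 CPM per kilobase for Arntl to 56.8 ± 11.0 for Tef (SD, n = 19 mice). Below Tef came Dbp (34.5 ± 6.43 CPM per kilobase), Per1 (27.7 ± 4.51) and Nr1d1 (26.5 ± 3.49). The ranges of Dbp, Per1 and Nr1d1 over the mice overlapped, so their order is not fixed beyond the spread. A middle group held Npas2 (13.2 ± 1.29 CPM per kilobase), Per2 (10.1 ± 2.34), Ciart (8.53 ± 2.26), Clock (7.47 ± 1.06) and Per3 (6.63 ± 1.15), again with overlapping neighbours. Npas2, the forebrain partner of ARNTL, was thus above Clock per kilobase in the mean. Across the 19 mice the highest level of a gene was 1.43 times the lowest for Npas2, the least variable, and 2.31 times for Arntl, the most variable.

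**Figure D1:**
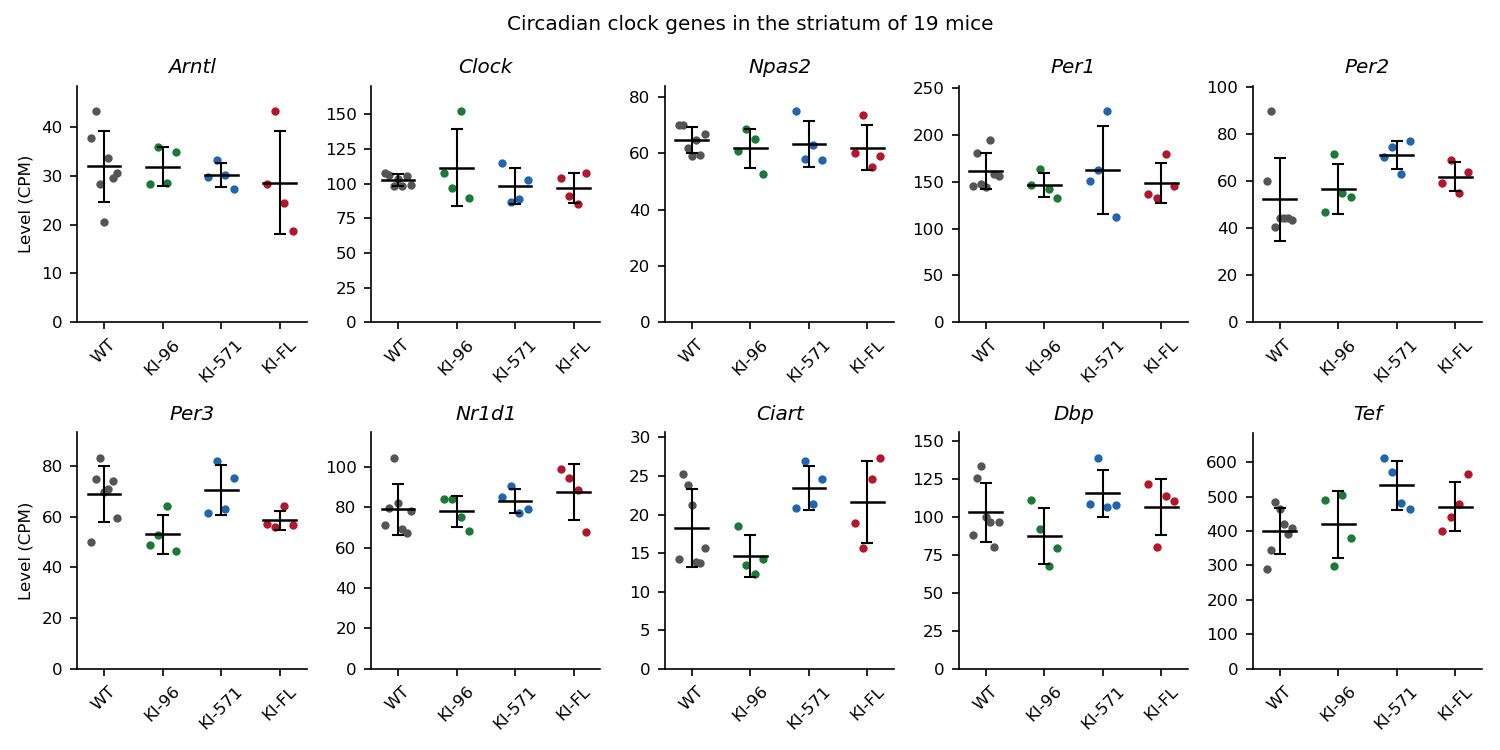
Level of each clock gene (CPM, axes from 0) in each of the 19 mice, by genotype; points are mice, the bar is the mean and the whisker the SD. The 4 KI-96 mice (12.2 to 18.5 CPM) lie below the 4 KI-571 mice (20.8 to 26.9 CPM) in the panel of Ciart, and no other pair of genotypes is without overlap in any panel.

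None of the 10 clock genes passed an adjusted p of 0.05 (edgeR quasi-likelihood test, Benjamini-Hochberg over 18521 genes) in any knock-in line against WT. Across all genes, 0.027% were called in KI-96, 0.0324% in KI-571 and 0.194% in KI-FL by the same rule. At an unadjusted p under 0.05 the counts were 1 of 10 clock genes in KI-96 (Per3, lower), 2 of 10 in KI-571 (Per2 and Tef, both higher) and 0 of 10 in KI-FL, beside 7.45%, 7.72% and 16.7% of all genes. No clock gene had non-overlapping levels between a knock-in line and WT, as 1.24%, 1.55% and 5.29% of all genes did. DESeq2 also called none in these comparisons. Without the 2 mice rich in cortical markers, none passed either, and those with an unadjusted p under 0.05 were Per3 in KI-96 (log2 fold change -0.33), Tef in KI-571 (0.43) and Nr1d1 in KI-FL (0.22). The median log2 fold change of the 10 genes was -0.04 in KI-96, 0.05 in KI-571 and -0.0043 in KI-FL, beside -0.02, -0.0089 and -0.03 over all genes. In bulk tissue, fewer cells of a type and less RNA per cell cannot be told apart, and this holds for every level given here.

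No activator gene had an unadjusted p under 0.05 in any line against WT. Arntl was at 28.3, 35.8, 28.5 and 34.9 CPM in the 4 KI-96 mice, at 29.8, 33.2, 30.2 and 27.3 in KI-571 and at 28.2, 43.1, 24.4 and 18.7 in KI-FL, against 20.6 to 43.2 in WT with a median of 30.5. The knock-in mice lay inside the WT range except KI-FL replicate 4, just under its lowest value. The log2 fold changes of Arntl against WT were -0.0018 ± 0.18 (SE) in KI-96, -0.08 ± 0.18 in KI-571 and -0.16 ± 0.18 in KI-FL. With the Xist level in the model, the value in KI-96 was -0.37 with an unadjusted p of 0.154 (edgeR), and that in KI-FL -0.27. Npas2 had log2 fold changes of -0.06, -0.03 and -0.06 (SE 0.10 in each), and its 95% intervals reached no further than -0.27 and 0.18. Clock had log2 fold changes of 0.12, -0.06 and -0.08 (SE 0.12 in each). Clock was nearly constant in WT, at 98.1 to 108 CPM, while KI-96 replicate 3, the library with many reads on no gene, had 152 CPM against 108, 96.9 and 89.6 in the other KI-96 mice. Without that mouse the log2 fold change of Clock in KI-96 was -0.07, of opposite sign.

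Of the Period genes, Per3 in KI-96 and Per2 in KI-571 had an unadjusted p under 0.05 against WT. Per3, the Period gene that the clock can run without, was at 48.8, 52.6, 64.2 and 46.4 CPM in KI-96, against 49.9 to 83.3 in WT with a median of 70.8. 3 of the 4 KI-96 mice lay below all WT mice but the lowest, which was WT replicate 1, the WT mouse with high Xist. The log2 fold change of Per3 in KI-96 was -0.38 ± 0.12 (SE), with an unadjusted p of 0.00584 and an adjusted p of 0.564 (edgeR quasi-likelihood, Benjamini-Hochberg). With the Xist level in the model it was -0.15, and the part of Xist-linked differences between mice in it was not tested further. In KI-FL Per3 was at 57.2, 56.1, 64.3 and 56.6 CPM, with a log2 fold change of -0.23 ± 0.12, and its adjusted p of 0.342 (edgeR) was the lowest of any clock gene in the 6 comparisons. In KI-571 Per3 spanned 61.7 to 82.1 CPM, within the WT range, with a log2 fold change of 0.03 ± 0.12.

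Per2, a core repressor of the loop that also responds to glucocorticoids, was at 70.1, 74.4, 63.3 and 77.0 CPM in KI-571, against 40.6 to 89.7 in WT with a median of 44.4. All 4 KI-571 mice lay above 6 of the 7 WT mice, and WT replicate 2 (89.7 CPM) lay above all of them. The log2 fold change was 0.44 ± 0.17 (SE), with an unadjusted p of 0.0162 and an adjusted p of 0.476 (edgeR quasi-likelihood, Benjamini-Hochberg). One WT mouse decides this value: without WT replicate 2 the log2 fold change was 0.62 and the adjusted p 0.0527, the lowest for any clock gene in any setting, over adjusted p values from 0.0527 to 0.9999 in all settings of this comparison. Without the 3 mice rich in choroid plexus markers, which leaves 2 KI-571 mice, it was 0.34 with an unadjusted p of 0.152 (edgeR), and without the 2 mice rich in cortical markers 0.37 with an unadjusted p of 0.0645 (edgeR). The part of choroid plexus or cortical RNA in the value was not tested further. In KI-FL Per2 was at 59.2, 69.2, 54.9 and 64.0 CPM, with a log2 fold change of 0.24 ± 0.17, and in KI-96 at 46.8, 71.6, 55.0 and 53.5 CPM, with 0.12 ± 0.17. Per1, the Period gene with the fastest response to stimulation, had log2 fold changes of -0.14, 0.01 and -0.11 (SE 0.14 in each) in KI-96, in KI-571 and in KI-FL. Its widest spread was in KI-571, where the mice had 151, 163, 225 and 112 CPM, both the highest and the lowest values among the 19.

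The other repressors did not pass either. Nr1d1, the nuclear receptor that represses Arntl, had log2 fold changes of -0.02, 0.08 and 0.15 (SE 0.12 in each) in KI-96, in KI-571 and in KI-FL. Ciart, the repressor with 3 E-boxes in its window, was at 18.5, 13.5, 12.2 and 14.3 CPM in KI-96 and at 20.8, 26.9, 21.3 and 24.6 in KI-571. WT mice fell on both sides, with 13.8 to 25.3 CPM and a median of 15.6, and KI-FL had 18.9, 15.7, 24.7 and 27.4. The log2 fold changes of Ciart against WT were -0.32 ± 0.19 (SE), 0.36 ± 0.19 and 0.25 ± 0.19 in KI-96, in KI-571 and in KI-FL.

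Of the output genes, Tef was at 613, 571.4, 482 and 465 CPM in KI-571, against 290 to 483 in WT with a median of 407. 2 of the 4 KI-571 mice lay above every WT mouse and the other two at the upper end of the WT range. The log2 fold change was 0.41 ± 0.15 (SE), with an unadjusted p of 0.0108 and an adjusted p of 0.417 (edgeR quasi-likelihood, Benjamini-Hochberg). It was 0.45 without the mice rich in choroid plexus markers, which leaves 2 KI-571 mice, replicates 1 and 3, at 613 and 482 CPM. The part of choroid plexus RNA in the value was not tested. In KI-96 and KI-FL the log2 fold changes of Tef were 0.07 ± 0.15 and 0.23 ± 0.15. Dbp, the output factor with the strongest rhythm in most tissues, was at 111, 92.0, 68.0 and 79.5 CPM in KI-96, at 108, 139, 107 and 108 in KI-571 and at 122, 80.3, 114 and 111 in KI-FL. WT mice spanned 80.2 to 134 CPM with a median of 97.0. The highest Dbp levels of the 19 mice, 139 and 134 CPM, were those of KI-571 replicate 2 and WT replicate 3, the mice rich in cortical markers, which also had the highest levels of Per3 (82.1 and 83.3 CPM). The part of cortical RNA in these levels was not tested. Its log2 fold changes against WT were -0.23 ± 0.15, 0.17 ± 0.15 and 0.05 ± 0.15.

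**Figure D2:**
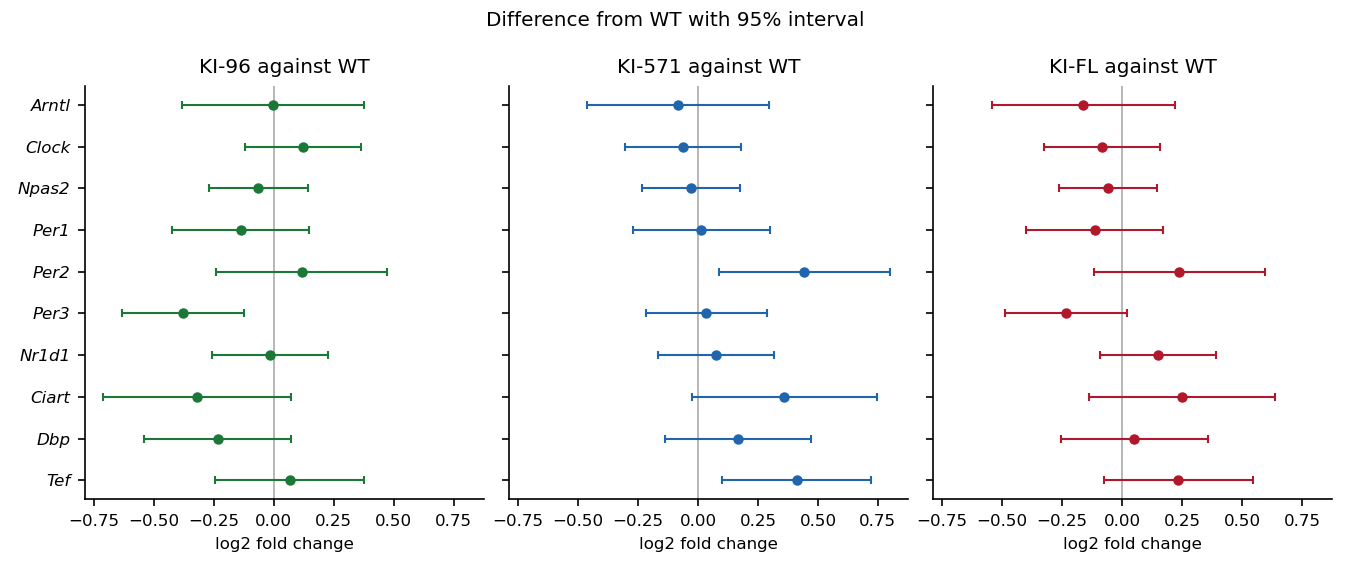
Log2 fold change of each clock gene in each knock-in line against WT (points) with its 95% interval (lines), from the edgeR fit over 19 mice. Intervals that leave out 0 are those of Per3 in KI-96 and of Per2 and Tef in KI-571, none of which passed after adjustment over all genes.

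The direct comparisons of the lines use the same knock-in mice, so their values are not separate from those against WT. Between KI-96 and KI-571, 0 of 10 clock genes passed after adjustment (0.0054% of all genes did) and 3 of 10 had an unadjusted p under 0.05 (5.51% of all genes), all lower in KI-96. They were Ciart, with a log2 difference of -0.68 ± 0.21 (SE) and an unadjusted p of 0.00413, Per3, with -0.41 ± 0.14 and 0.00687, and Dbp, with -0.40 ± 0.17 and 0.0249 (edgeR quasi-likelihood). Ciart was the 1 clock gene whose levels did not overlap between the lines (2.85% of all genes did not), and its adjusted p was 0.541 (edgeR, Benjamini-Hochberg). Without the mice rich in choroid plexus markers the log2 differences of Ciart, Per3 and Dbp were -0.53, -0.24 and -0.30, without the mice rich in cortical markers -0.61, -0.34 and -0.31, and with Xist as a covariate -0.31, -0.18 and -0.09. Between KI-96 and KI-FL, 0 of 10 passed after adjustment (0% of all genes) and 1 of 10 had an unadjusted p under 0.05 (8.9% of all genes). It was Ciart, with a log2 difference of -0.57 ± 0.21 and an unadjusted p of 0.0136 (edgeR). No clock gene was without overlap there (3.16% of all genes). Between KI-571 and KI-FL, 0 of 10 passed after adjustment (0.0864% of all genes), 0 of 10 had an unadjusted p under 0.05 (8.9%) and 0 were without overlap (4.32%). DESeq2 called no clock gene in these 3 comparisons.

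The opposed phases of the loop were used to describe how far mice might differ in circadian time. A phase index of each mouse was its average log2 CPM over Arntl and Npas2 less its average over Per1, Per2, Per3, Dbp and Nr1d1, so that a higher index stands for more of the activator transcripts relative to the others. It averaged -0.92 ± 0.22 in WT (SD, n = 7), -0.82 ± 0.09 in KI-96, -1.11 ± 0.13 in KI-571 and -1.08 ± 0.36 in KI-FL (SD, n = 4 each). The index ran from -1.23 to -0.59 in WT, from -0.93 to -0.73 in KI-96, from -1.25 to -0.93 in KI-571 and from -1.32 to -0.56 in KI-FL. The first arm averaged 5.49 log2 CPM in WT, 5.47 in KI-96, 5.45 in KI-571 and 5.36 in KI-FL, and the second arm 6.41, 6.29, 6.56 and 6.44. The mean indices of KI-96 and KI-571 thus differed from that of WT mainly in the second arm, and that of KI-FL mainly in the first. All KI-96 mice lay inside the WT range, and the widest range, in KI-FL, was as wide as that over all 19 mice (0.76 log2 units). KI-96 and KI-571 met at -0.933 and -0.934 without overlapping. As a score over chosen genes it was given no test.

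The 6 mice with high Xist had indices from -0.93 to -0.56 and the other 13 from -1.32 to -0.81. In WT and in KI-FL the mouse with high Xist had the highest index of its genotype, -0.59 in WT replicate 1 and -0.56 in KI-FL replicate 2. Without these 2 mice the means were -0.97 ± 0.18 in WT (SD, n = 6) and -1.25 ± 0.12 in KI-FL (SD, n = 3). The part of Xist-linked differences between mice in the index was not tested. Among the WT mice, replicates 5 to 7, which were sequenced more deeply, had indices from -0.88 to -0.81, and replicates 1 to 4 from -1.23 to -0.59.

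**Figure D3:**
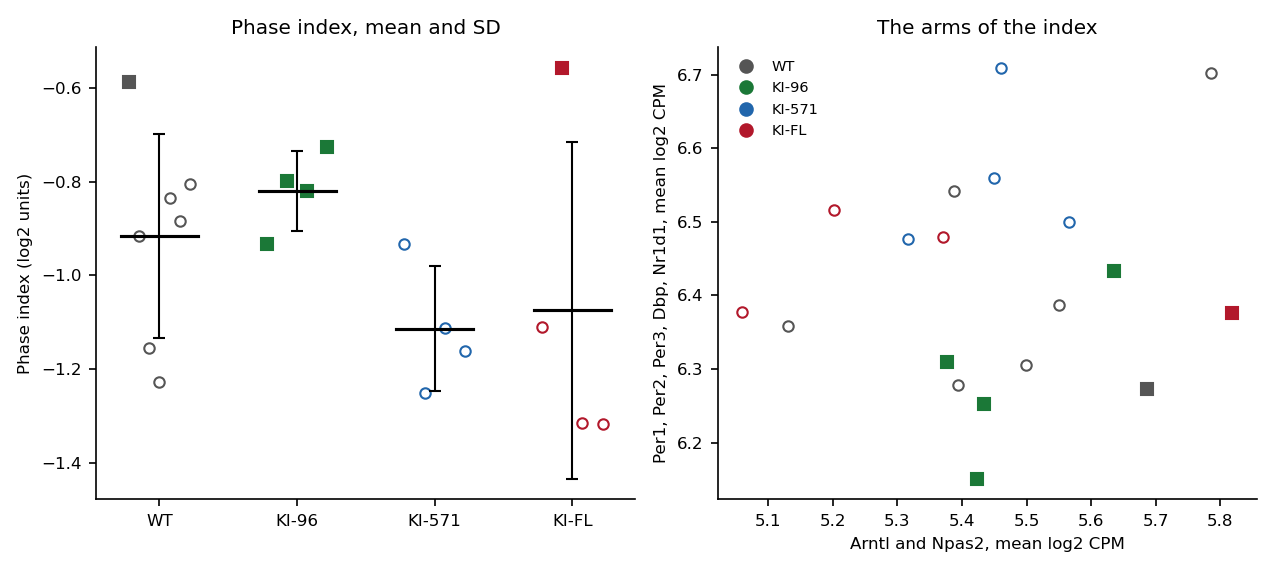
Left, phase index (log2 units) of each mouse by genotype, with mean and SD; filled squares are the 6 mice with Xist at 100 CPM or more and open circles the others. Right, the arms of the index against each other (log2 CPM), in the same symbols. The squares lie between -0.93 and -0.56 on the left, and on the right the arms show no common downward line.

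Arms that differed only by time of day would run against each other within a genotype, so the 45 pairs of clock genes were correlated over the 19 mice after removal of the genotype means, with a permutation test within genotype and Benjamini-Hochberg adjustment over the 45 pairs. Of the 10 pairs that join Arntl or Npas2 with Per1, Per2, Per3, Dbp or Nr1d1, 4 had a negative r and 6 a positive r, with a median of 0.103 and a range from -0.287 to 0.562. None passed after adjustment, and the 2 with an unadjusted p under 0.05 were positive. Those were Arntl with Per2 (r = 0.562, permutation p = 0.0208, adjusted p = 0.202) and Npas2 with Per2 (r = 0.451, permutation p = 0.0254, adjusted p = 0.202). Per2 was thus higher in the mice with more of the activator transcripts, in 2 relations that did not pass. The arms of the index assume the other sign. The activators themselves, Arntl and Npas2, had r = 0.53 (permutation p = 0.0269, adjusted p = 0.202). Within the second arm the 10 pairs had a median r of 0.049, from -0.111 to 0.527, and the highest was Dbp with Nr1d1 (permutation p = 0.0416, adjusted p = 0.267).

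1 of the 45 pairs passed after adjustment, that of Dbp with Ciart, both genes driven by E-boxes through CLOCK-ARNTL in other tissues. Their r was 0.801 over 19 mice (permutation p = 0.00022, adjusted p = 0.0099), and Spearman's rho was 0.781 (permutation p = 0.0002, adjusted p = 0.009). In the 7 WT mice alone r was 0.888 (exact permutation p = 0.00278, adjusted p = 0.125). Without the 2 mice farthest from the median of Dbp it was 0.737 (permutation p = 0.00229, adjusted p = 0.103), without the mice rich in choroid plexus markers 0.881 (permutation p = 0.00015, adjusted p = 0.00675), without the mice rich in cortical markers 0.757 (permutation p = 0.00215, adjusted p = 0.0968), and in the 13 mice with Xist under 100 CPM 0.723 (permutation p = 0.018, adjusted p = 0.405). The relation was positive in each of these sets, and its adjusted p passed in the full set and without the mice rich in choroid plexus markers, but not without the mice rich in cortical markers, WT replicate 3 and KI-571 replicate 2. Tef, the other PAR bZIP gene, went another way: its r with Dbp was 0.146, and with Arntl and Per2 it was -0.595 (permutation p = 0.00759, adjusted p = 0.171) and -0.568 (permutation p = 0.0261, adjusted p = 0.202).

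**Figure D4:**
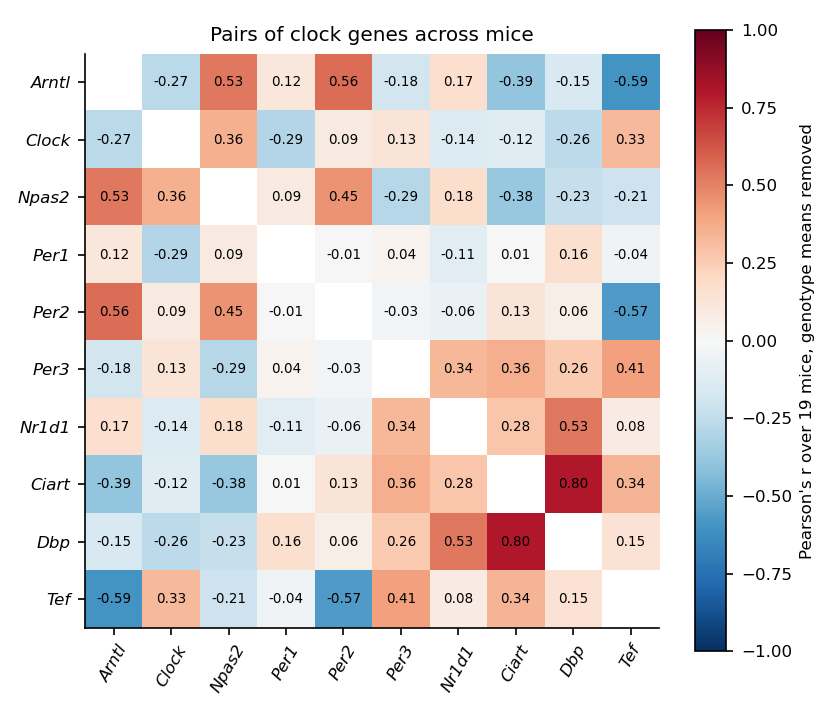
Pearson's r between each pair of clock genes (rows and columns) over 19 mice, of log2 CPM with genotype means removed; red is positive, blue negative, and the value stands in each cell. The pair of Dbp and Ciart (0.80) stands out, and the block of Arntl and Npas2 against the Period genes, Nr1d1 and Dbp is of mixed sign.

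Of all 15451 genes with a mean of at least 1 CPM, the 5 whose genotype-centred log2 CPM was most like that of Dbp over the 19 mice were Vwa7 (r = 0.861), Psd (0.859), Gm13577 (0.854), Nhp2 (0.845) and Camkk1 (0.834). Ciart ranked 9 and Nr1d1 667 in that order. The 5 most like Arntl were Krtcap3 (r = 0.856), Pdia6 (0.844), Cyp2s1 (0.828), Wipf3 (0.825) and Rbm10 (0.825), while Per2 ranked 719. These are descriptions, with no test, over 19 mice that differ in depth and in choroid plexus and cortical RNA.

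Clock genes can also respond to activity and to stress hormone, so each was set beside the mean log2 CPM of 14 immediate early genes (Fos and Arc among them, induced within minutes of neuronal activity) and of 10 glucocorticoid-responsive genes (Fkbp5 and Sgk1 among them). These 20 relations were added after the values had been seen. None of the 24 genes passed after adjustment in any comparison (edgeR quasi-likelihood, Benjamini-Hochberg), beside the shares of all genes given above. Of the 14 immediate early genes, 12 had a log2 fold change below 0 in KI-96 against WT, with a median of -0.37. As many as 12 were below 0 in KI-FL against WT (median -0.20), while KI-571 against WT had 11 (median -0.14). An unadjusted p under 0.05 was reached by 1 of them in KI-96, 1 in KI-FL and 0 in KI-571. Of the glucocorticoid-responsive genes, 9 of 10 were below 0 in KI-96 against WT (median -0.34) and 9 of 10 above 0 in KI-FL against WT (median 0.31), with 1 of 10 at an unadjusted p under 0.05 in each. In KI-96 against KI-FL all 10 were below 0, with a median of -0.62 beside 0.02 over all genes, and 5 of 10 had an unadjusted p under 0.05 (8.9% of all genes). Those 5, named after their values were seen, were Pdk4, Nfkbia, Cdkn1a, Plin4 and Fkbp5, with adjusted p from 0.413 to 0.549 (edgeR). Pdk4 was the 1 gene of the 10 whose levels did not overlap between KI-96 and KI-FL (3.16% of all genes did not). The mean log2 CPM of these 10 genes was highest in 1 KI-FL mouse, replicate 2, at 5.64, the KI-FL mouse with high Xist. It was 4.77, 4.33 and 4.41 in KI-FL replicates 1, 3 and 4, and KI-96 spanned 4.03 to 4.50. The part of KI-FL replicate 2 in the values of this list was not tested. Fos had a median of 17.8 CPM in WT (5.49 to 29.6), 8.35 in KI-96, 11.9 in KI-571 and 12.01 in KI-FL, and Arc 135 CPM in WT (95.6 to 233), 91.2 in KI-96, 101 in KI-571 and 135 in KI-FL. Fkbp5, a chaperone of the glucocorticoid receptor, had a median of 42.6 CPM in WT and 62.1 in KI-FL, with an adjusted p of 0.08 (edgeR). Sgk1 had medians of 159 CPM in WT and 95.8 in KI-96, with an adjusted p of 0.642 (edgeR).

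1 of the 20 relations passed, that of Per1 with the immediate early genes. Its r was 0.785 over 19 mice with genotype means removed (permutation p = 0.00197, adjusted p = 0.0394), and rho was 0.728 (permutation p = 0.00308, adjusted p = 0.0616). Before that removal KI-571 replicate 3 was highest of the 19 mice in both measures, with 225 CPM of Per1, and KI-571 replicate 4 lowest in both, with 112 CPM. The 2 mice farthest from the median of the immediate early genes, genotype means removed, were KI-571 replicate 3 and WT replicate 5. Without them r was 0.623 (permutation p = 0.0151, adjusted p = 0.301), so the adjusted call rests on those mice. In the 7 WT mice alone r was 0.624 (exact permutation p = 0.144), without the mice rich in choroid plexus markers 0.724 (permutation p = 0.0277, adjusted p = 0.277), and without the mice rich in cortical markers 0.818 (permutation p = 0.005, adjusted p = 0.1). Nr1d1 ran the other way, with r = -0.576 (permutation p = 0.00956, adjusted p = 0.0956). In the 13 mice with Xist under 100 CPM it was -0.654 (permutation p = 0.00684, adjusted p = 0.0416), past the threshold there. Per2 and Per3 had r of -0.099 and -0.199 with the same genes, near 0. Against the glucocorticoid-responsive genes Arntl had r = 0.643 (permutation p = 0.04, adjusted p = 0.267), which was 0.216 without the 2 mice farthest from the median. Per2 had r = 0.47 (permutation p = 0.0574, adjusted p = 0.287) and a rho of 0.174. Its r was -0.095 without the 2 mice farthest from the median (permutation p = 0.718).

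**Figure D5:**
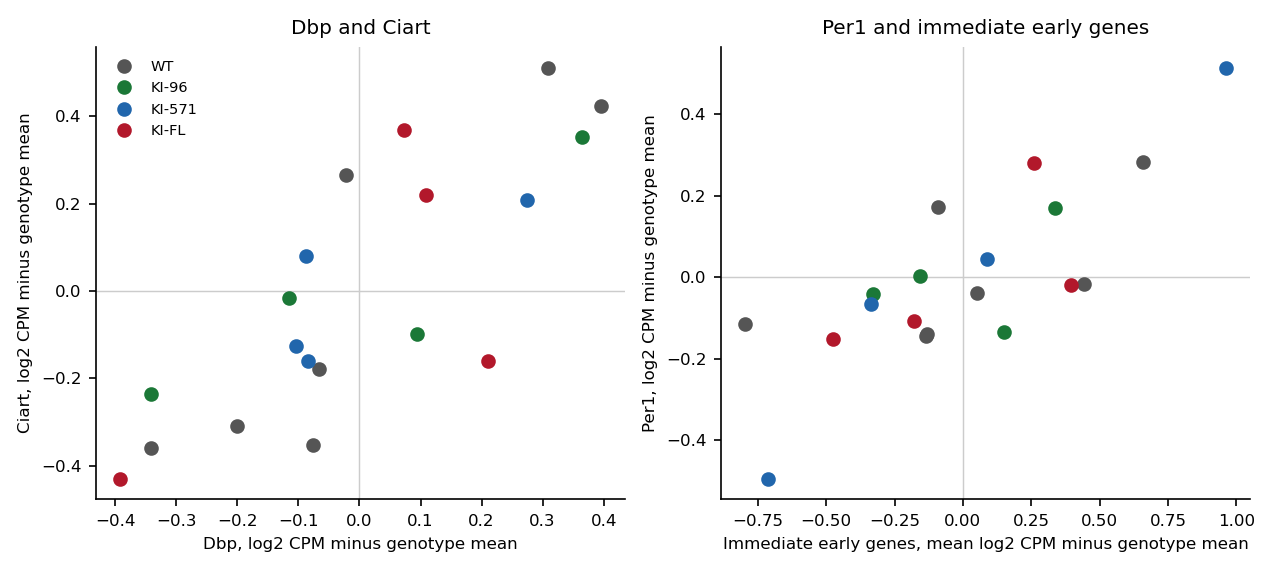
Left, Ciart against Dbp, and right, Per1 against the mean of 14 immediate early genes, each as log2 CPM minus the mean of the genotype; points are mice, coloured by genotype. Ciart follows Dbp through the whole range (r = 0.801), while on the right 2 KI-571 mice hold the highest and the lowest level of Per1 (r = 0.785 with them).

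The other clock genes were read from a list of 25, all of which were tested: partners and receptors such as Cry1, Cry2, Nr1d2 and Rora, kinases and ubiquitin ligases that act on PER and CRY, and outputs such as Usp2 and Wee1. None of the 25 passed after adjustment in any of the 6 comparisons (edgeR quasi-likelihood, Benjamini-Hochberg). At an unadjusted p under 0.05 they numbered 2 in KI-96 against WT, 1 in KI-571 against WT and 6 in KI-FL against WT (5 higher, 1 lower), beside the shares of all genes given above. The lowest p in KI-FL against WT was that of Timeless, a replication fork protein with a debated role in the mammalian clock, at 4.51, 5.23, 5.96 and 7.90 CPM in KI-FL against 2.65 to 4.07 in WT. All 4 KI-FL mice were above all WT mice, as they also were for Bhlhe41, Wee1 and Nono, 4 of 25 genes without overlap beside 5.29% of all genes. In KI-571 against WT 0 of 25 were without overlap, beside 1.55%. Nono and the other names in this count were given after their values were seen. Timeless had a log2 fold change of 0.72 ± 0.21 (SE) in KI-FL against WT and an adjusted p of 0.104 (edgeR). Btrc, a ubiquitin ligase subunit that acts on PER proteins, had the lowest p in KI-96 against WT, with a log2 fold change of 0.35 ± 0.12 and an adjusted p of 0.582 (edgeR). Bhlhe41, a repressor that competes for E-boxes, had the lowest p in KI-571 against WT, with 0.37 ± 0.14 and an adjusted p of 0.475 (edgeR). Its levels were 99.1, 71.2, 67.1 and 64.3 CPM in KI-571, 65.1 to 67.9 in WT replicates 1 to 4 and 45.5 to 50.7 in WT replicates 5 to 7, the more deeply sequenced ones. KI-571 thus overlapped the first 4 WT mice and lay above the other 3. Between the lines the lowest p belonged to Fbxw11 (KI-96 against KI-571, log2 difference 0.20 ± 0.09), Rora (KI-96 against KI-FL, 0.47 ± 0.16) and Wee1 (KI-571 against KI-FL, -0.33 ± 0.11), with adjusted p of 0.90, 0.439 and 0.398 (edgeR). Rora, the activator of Arntl that competes with NR1D1, was at 109 CPM in KI-96 replicate 3 and 95.9 in replicate 4, against 65.3 and 55.6 in the other KI-96 mice.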

How the data were processed

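RNA of dissected striatum was sequenced for 19 mice. The authors deposited a table of raw counts: they trimmed adapters with BBduk, aligned reads to GRCm38 with STAR and counted genes with HTSeq, whose strand setting and annotation are not given in the sources used here. The 5 summary lines of the table (20.8% to 32.8% of the counts of each mouse in total, reads on no gene included) were left out, as were 4 columns that the submitters ask to disregard. The study fitted a sacrifice batch and removed 1 WT library. Neither is named in the labels, so all 7 WT mice were kept.

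Gene IDs (54232) were matched without version to symbols (54079 matched) and to GENCODE M21 (54165 matched). Genes were kept by filterByExpr (minimum count 10, minimum total 15), leaving 18521, and fitted in edgeR 4.0.16 (R 4.3.3) with TMM factors and the quasi-likelihood test, with 4 genotypes in 1 model and Benjamini-Hochberg adjustment over all 18521 genes at 0.05. Levels are CPM, and log2 CPM used a prior count of 2. Levels per kilobase divide CPM by the union of exons. SEs came from the fitted information matrix, and 95% intervals from the t distribution of the test. The fit was tested on simulated data. Correlations of mice used 100000 permutations within genotype, or all permutations for the 7 WT mice, two-sided. Reads ranged from 12669809 to 26388542 per mouse, and intervals and tests over mice measure the spread between these samples.

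Alternatives were DESeq2 1.42.0, its size factors, no count filter, only 2 genotypes in the model, Xist as a covariate, a replicate block, parts of the WT mice, leaving out each mouse and the phase index as a covariate. Leaving out the mice with 1000 CPM or more of choroid plexus markers or 500 CPM or more of cortical markers, the mice with Xist under 100 CPM alone, and the relations with the immediate early and glucocorticoid lists were added after seeing the data. No replicate pair differed by as little as sampling noise (lowest chi-square per degree of freedom 8.60). The clock genes and lists were chosen with earlier results of these data known. Named in the text are all 10 genes; of 25 further clock genes any past the threshold and the 1 with the lowest p per comparison (other names there are examples without values); the 5 genes most correlated with Dbp and with Arntl; and Fos, Arc, Fkbp5 and Sgk1 as examples. The overlap count of the further clock genes in KI-96 against WT is not reported here.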

Additional observations from a re-analysis of the deposited data

Results flagged for a closer look

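Each of the 10 clock genes and the phase index was examined in each of the 4 genotypes (44 groups) for a mouse far from the others by Dixon's test at 95%, which by chance marks about 1 group in 20. 2 groups held such a mouse. Dbp in KI-571 replicate 2 was at 7.12 log2 CPM against 6.74 to 6.76 in the other 3 KI-571 mice. That library is 1 of the 3 with high choroid plexus markers (5179 CPM) and 1 of the 2 with high cortical markers (589 CPM). KI-571 replicate 4, with 5567 CPM of choroid plexus markers, did not have a high Dbp. WT replicate 3, with 1234 CPM of cortical markers, had the highest Dbp of the WT mice. The part of either tissue in the value was not tested. Per3 in KI-FL replicate 3 was at 6.01 log2 CPM while the remaining KI-FL mice had 5.81 to 5.84.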

How the results depend on the processing

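No clock gene passed an adjusted p of 0.05 in any of the 6 comparisons under any of the 30 settings, over 1740 values, by edgeR or DESeq2. The number with an unadjusted p under 0.05 reached at most 5 of 10, in KI-96 against KI-571 without KI-571 replicate 4 (edgeR). There 750 of all 18990 genes tested did so. Of 34 log2 fold changes of clock genes followed through the settings, 11 turned sign in a setting other than leaving out single mice. In KI-96 against WT only Per3 kept its sign in every setting and with every mouse left out. The sign turned for Arntl in KI-96 with DESeq2 size factors (0.000298), the replicate block (0.029) and WT replicates 5 to 7 alone (0.027). With WT replicates 5 to 7 alone it also turned for Nr1d1 (0.12) and Ciart (0.018) in KI-96 and Per1 in KI-571 (-0.061). With WT replicates 1 to 4 alone it turned for Per2 in KI-96 (-0.049), Nr1d1 in KI-571 (-0.022) and Dbp in KI-FL (-0.078). With Xist as a covariate it turned for Per1 (0.091), Dbp (0.066) and Ciart (0.044) in KI-96, without a count filter for Per1 in KI-571 (-0.0028), and without the mice rich in choroid plexus markers for Npas2 (0.088) and Per3 (-0.15) in KI-571 and Dbp in KI-FL (-0.034). Without the mice rich in cortical markers it turned for Nr1d1 in KI-96 (0.059) and Npas2 (0.0058) and Per1 (-0.0053) in KI-571. Replicate numbers are not stated to pair the mice. Over 24 pairs of mice that share a number, the median r of their deviations was -0.005, with 5 pairs above 0.1. Over 72 pairs of unlike number it was -0.003, with 8 pairs above 0.1. With the replicate block the sign also turned for Per2 in KI-96 (-0.014), Nr1d1 in KI-571 (-0.024) and Dbp in KI-FL (-0.067), and the counts of all genes called were 0, 1, 0, 0, 1 and 9. These and the following counts are in the order KI-96, KI-571 and KI-FL against WT, then KI-96 against KI-571, KI-96 against KI-FL and KI-571 against KI-FL. They were 5, 6, 36, 1, 0 and 16 as reported. DESeq2 gave 33, 117, 596, 36, 52 and 114, no count filter 23, 78, 85, 35, 24 and 25, and only 2 genotypes in the model 0, 55, 336, 9 and 2 for the first 5. The Xist covariate gave 0 for KI-96 against WT, KI-FL against WT and KI-96 against KI-571. WT replicates 1 to 4 alone gave 0, 0 and 0 against WT, and WT replicates 5 to 7 alone 28 and 18 for the first 2. Without the mice rich in choroid plexus markers the counts were 1, 0, 0, 0, 0 and 0, and without those rich in cortical markers 0, 0, 51, 0, 0 and 5. With the phase index as a covariate KI-FL against WT gave 15, of which 12 were among the 36, and KI-96 against KI-571 gave 0. The cause of these shifts was not tested. Leaving out each mouse gave 1 to 10, 0 to 46, 0 to 159, 0 to 5, 0 to 9 and 1 to 21 genes called, and no clock gene. The sign turned for 11 log2 fold changes against WT when single mice were left out, with ranges of -0.087 to 0.085 for Arntl, -0.070 to 0.21 for Clock, -0.12 to 0.0055 for Npas2, -0.017 to 0.30 for Per2, -0.039 to 0.20 for Tef and -0.059 to 0.060 for Nr1d1 in KI-96, -0.17 to 0.0042 for Arntl, -0.12 to 0.015 for Npas2, -0.18 to 0.16 for Per1 and -0.047 to 0.093 for Per3 in KI-571, -0.032 to 0.16 for Dbp in KI-FL. The phase index by genotype ranged from -0.97 to -0.86 in WT, -0.85 to -0.78 in KI-96, -1.17 to -1.07 in KI-571 and -1.25 to -0.99 in KI-FL when each mouse was left out. As Arntl minus Dbp it averaged -1.70, -1.44, -1.93 and -1.95, and with Clock, Tef and Ciart added -0.51, -0.38 and -0.79 in WT, KI-96 and KI-571, by construction on another scale. The pairs past the threshold numbered 0 in the 7 WT mice alone, without the 2 farthest mice, in mice with Xist under 100 CPM and without the mice rich in cortical markers, where r of Dbp with Ciart was 0.888, 0.737, 0.723 and 0.757. Without KI-FL replicate 4 it was 0.824 and 1 pair passed. Of the 20 relations with the immediate early and glucocorticoid lists, 0 passed in the WT mice alone, without the 2 farthest mice and without the mice rich in choroid plexus or in cortical markers, where r of Per1 was 0.624, 0.623, 0.724 and 0.818. In mice with Xist under 100 CPM 4 passed, those of Per1 and Nr1d1 with the immediate early genes and of Per2 and Tef with the glucocorticoid-responsive genes. That of Per2 had r = -0.095 when only the 2 farthest mice were left out. Without KI-FL replicate 4 r of Per1 was 0.815 and 1 relation passed. Whether sacrifice batch or hour differed between genotypes cannot be told from the labels.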
